A study of Mus musculus with 7 samples.

Results

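The genes of the STAT family studied here, Stat2, Stat3, Stat4, Stat5a, Stat5b and Stat6, were read from the gene table of a mouse heart RNA sequencing experiment by matching their symbols. All 6 were found among the 23420 rows of the table, and all 6 were among the 15236 genes that passed the filter on low values. The experiment compared a mouse model of heart inflammation of the kind that checkpoint inhibitor drugs (ICI) can cause with unaffected mice. The 4 control hearts were Ctla4+/+;Pdcd1-/- and the 3 ICI-myocarditis hearts were Ctla4+/-;Pdcd1-/-, so every animal of both groups was labelled as lacking Pdcd1, the gene of the checkpoint receptor PD-1, and the groups differed by 1 copy of Ctla4, the gene of the checkpoint receptor CTLA-4. The animals were 3 to 6 weeks old and received no treatment, and RNA came from frozen cardiac ventricle, although the tissue label reads whole heart. Nothing in the labels tells litter or sex, and whether the knockout was limited to a cell type is not given in the sources used here.

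STAT proteins carry signals from cytokine receptors to the nucleus. When a cytokine binds its receptor, Janus kinases (JAKs) bound to the receptor phosphorylate a STAT protein, which then pairs through its SH2 domain and binds DNA at the promoters of target genes. STAT2 works in the type I interferon response with IRF9, STAT3 downstream of interleukin-6 type cytokines, STAT4 downstream of interleukin-12 in T cells and natural killer (NK) cells, STAT5A and STAT5B downstream of interleukin-2, growth hormone and prolactin, and STAT6 downstream of interleukin-4 and interleukin-13. In heart muscle STAT3 is known for its protective role under stress. The measurements here are of messenger RNA and do not report phosphorylation. In bulk tissue, fewer cells of a type and less RNA per cell cannot be told apart.

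Levels are given as normalized counts, that is, reads per gene divided by 1 scaling factor per library. Libraries held 20931730 to 39037176 reads assigned to genes, with a median of 29869948. Pdcd1 reads were present in every library, from 2.50 to 244 normalized counts in controls and from 1096 to 1481 in ICI-myocarditis, and Ctla4 averaged 63.3 ± 37.4 (SD, n = 4) and 302 ± 63.4 in the affected hearts (SD, n = 3), and counts per gene do not tell whether such reads lie outside the deleted part, so neither gene checked the genotype labels. All 12 cardiomyocyte markers were among the genes tested, and their summed level was 4158120 to 5386180 normalized counts in controls 1, 3 and 4, 2621610 in control 2 and 1974130 to 3134630 in ICI-myocarditis. All 12 had log2 fold changes below 0, with a median of -0.79, and 1 of them was called lower. Control 2 stood apart from the other controls in these markers, in pericyte and smooth muscle markers (54445 against 69129 to 74989) and in immune genes: its 16 T cell markers summed to 3353 normalized counts, against 808 to 1110 in the other controls and 12349 to 19053 in ICI-myocarditis. The part that these shifts in markers have in the STAT values was not tested.

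Sequences before the starts of Stat2 and Stat4 are shown because these were the genes called and because a motif of interferon response was found before both. Taken from RefSeq on build GRCm38.p6, the 250 bases before each annotated start were searched on both strands for TTTC and TTTC with 2 bases of any kind between them, the core of the interferon-stimulated response element to which the complex of STAT2 and IRF9 binds. They were also searched for TTCNNNGAA, the palindrome bound by most STAT dimers, and for TTC and GAA with 4 bases of any kind between them, the wider palindrome preferred by STAT6. The symbols of all 6 genes were found in RefSeq, with 9 windows in all. Capitals mark the match to the first motif on either strand, and the first Stat4 window, which has none, is shown for comparison.
Stat2, chr10:128270248-128270497, plus strand: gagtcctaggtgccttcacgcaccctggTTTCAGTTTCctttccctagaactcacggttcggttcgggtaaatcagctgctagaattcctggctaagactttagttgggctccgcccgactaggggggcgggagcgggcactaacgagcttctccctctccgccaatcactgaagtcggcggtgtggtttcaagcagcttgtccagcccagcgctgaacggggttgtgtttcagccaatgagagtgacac
Stat4, first start, chr1:51986898-51987147, plus strand: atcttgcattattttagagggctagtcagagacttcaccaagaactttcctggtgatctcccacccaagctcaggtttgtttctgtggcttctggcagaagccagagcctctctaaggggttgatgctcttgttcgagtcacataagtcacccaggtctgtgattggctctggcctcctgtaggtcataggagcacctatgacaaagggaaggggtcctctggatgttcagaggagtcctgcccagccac
Stat4, second start, chr1:52007990-52008239, plus strand: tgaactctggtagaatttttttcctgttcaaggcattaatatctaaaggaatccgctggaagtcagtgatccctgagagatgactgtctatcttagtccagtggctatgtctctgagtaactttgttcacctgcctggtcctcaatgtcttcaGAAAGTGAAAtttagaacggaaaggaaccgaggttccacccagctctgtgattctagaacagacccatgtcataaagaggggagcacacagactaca

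The match of Stat2 lay 222 to 213 bases before its start, on the strand of the gene, at chr10:128270276-128270285. The match of Stat4 lay 97 to 88 bases before the second of its starts, on the opposite strand, at chr1:52008143-52008152, and the window of its first start held none. The windows of Stat3, Stat5a, Stat5b and Stat6 held no match to this motif. Of all 32851 promoter windows of this length, 2.98% held it. Stat2 also matched the wider palindrome, which reads the same on both strands, at 210 to 201 bases before the start, and 5.85% of all windows held it. None of the 9 windows matched TTCNNNGAA, found in 7.02% of all windows. A match describes letters and shows no binding, and the table does not tell which start was used.

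In ICI-myocarditis hearts Stat4 and Stat2 rose, while Stat3, Stat6, Stat5b and Stat5a did not pass the test. Stat4 averaged 274 ± 76.9 normalized counts in ICI-myocarditis (SD, n = 3) against 31.1 ± 42.0 in controls (SD, n = 4), and Stat2 averaged 4134 ± 165 against 1503 ± 1050. Counted this way, 2 of 6 genes were called, both higher, where 15.7% of all genes tested were called and 11.7% were called higher. The median log2 fold change of the 6 genes was 0.48, against -0.02 over all genes tested. The 3 ICI-myocarditis libraries lay fully above the controls for 4 genes (Stat2, Stat3, Stat4 and Stat6) and fully below them for 1 (Stat5a), with overlap only for Stat5b. Over all genes tested, the groups did not overlap for 28.6%, 17.3% on the higher and 11.3% on the lower side.

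**Figure D1:**
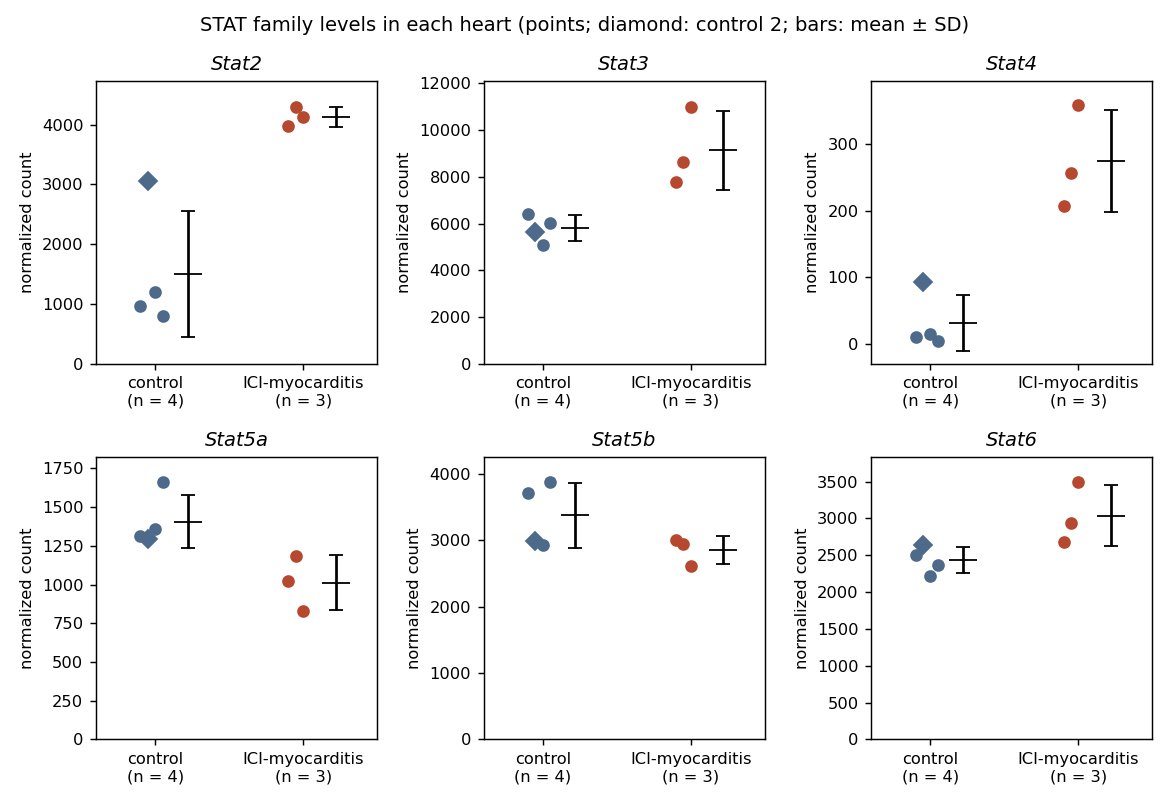
Normalized counts (vertical axis, linear) of the 6 STAT genes in each library, with 4 controls in blue and 3 ICI-myocarditis libraries in red; horizontal bars with whiskers are the mean ± SD and the diamond is control 2. Stat2 and Stat4 of control 2, at 3058 and 93.8, sit between the other controls and the ICI-myocarditis libraries, while Stat3, Stat5a, Stat5b and Stat6 of control 2 lie among or next to the other controls.

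Stat4, the interleukin-12 responsive member, was the scarcest of the 6 and changed the most. Its normalized counts were 11.1, 93.8, 14.5 and 5.005 in controls 1 to 4 against 208, 257 and 358 in affected hearts 1 to 3. Every ICI-myocarditis library was above every control, with control 2 far above the other controls. Recovered reads of Stat4 ranged from 4 in control 4 to 469 in ICI-myocarditis 3, so the control values carry a large counting error. The log2 fold change was 3.89 (SE 0.799, 95% interval 2.09 to 5.69, limma adjusted p = 0.0122), and 1.48% of genes tested had a larger one. Without control 2, when 22.1% of all genes tested were called, it was 4.69 (limma adjusted p = 0.00011), against 10.2 ± 4.82 normalized counts in the 3 remaining controls. The call was lost without ICI-myocarditis 3 (limma adjusted p = 0.0553).

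Stat4 was read beside the cells known to use it. All 15 tested T cell markers were called higher, with a median log2 fold change of 4.49, and no T cell marker was at 0 throughout. Cd8b1, Lat and Zap70 needed the affected hearts to pass the filter on low values. Their control means were 37.3, 49.7 and 48.6, with highest controls of 128, 175 and 169 and lowest of 2.50, 6.05 and 6.26. The count and the median of this list are therefore not free of the filter. Cd8a, a coreceptor of cytotoxic T cells and the most abundant marker of that list, averaged 168 ± 269.6 normalized counts in controls against 2991 ± 777 in affected hearts. Of 6 tested NK cell markers 4 were called higher, while Klra8 and Klra4 were listed at 0 in all libraries. Of the 4, Eomes and Klre1 needed the affected hearts to pass the filter, with highest controls of 93.8 and 29.6 and control means of 27.1 and 9.08. Summed NK cell markers ranged from 30.0 to 470 in controls, the highest in control 2, and from 998 to 1612 in ICI-myocarditis. Dendritic cell markers, with 4 of 8 called higher, summed to 717 to 2856 normalized counts in controls, again highest in control 2, and to 2740 to 4449 in ICI-myocarditis.

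Set against the T cell markers of the same library, the level of Stat4 showed no separation of the groups. The log2 level of Stat4 minus the mean log2 level of 15 T cell markers was -1.24 ± 0.35 over the 4 controls and -1.59 ± 0.18 over the 3 affected hearts (SD), with overlapping groups (exact two-sided permutation p = 0.171, adjusted over 5 such comparisons 0.393). Control 2 had the highest of these values, next to -1.14 in control 1 and -1.06 in control 3, while control 4 was at -1.76. Against NK cell markers the values were 0.54 ± 0.43 and 1.16 ± 0.84, also overlapping (exact permutation p = 0.257, adjusted 0.393). Against dendritic cell markers all 3 ICI-myocarditis libraries were higher, at 0.53 ± 0.21 against -1.17 ± 0.54 (exact permutation p = 0.0571, adjusted 0.286). That list is mixed: Flt3 (3.82), Xcr1 (3.90), Ccr7 (3.25) and Itgax (4.44) were called higher on the log2 scale. Zbtb46 (-0.47), Cd209a (0.23), Clec9a (1.09) and Siglech (1.30) were not called, so the list mean rose less than its called members. Without control 2 the controls averaged -1.32 ± 0.38, 0.54 ± 0.53 and -1.43 ± 0.11 against the T, NK and dendritic lists (SD, n = 3), and overlap or separation was as with it. The share of the Stat4 difference that these cells account for was not tested.

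**Figure D2:**
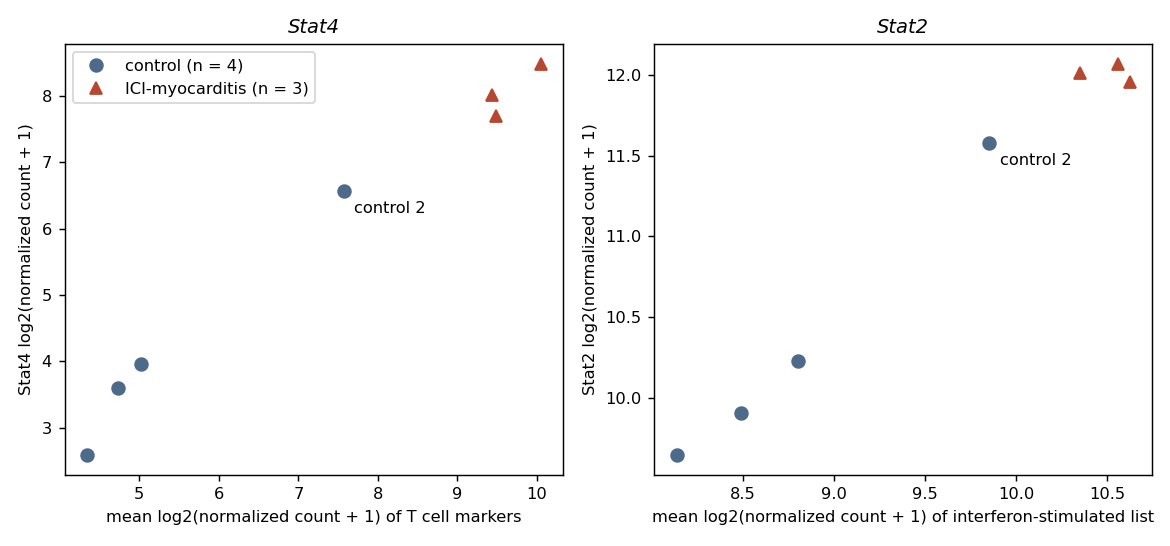
Level of a STAT gene (vertical axis, log2 of normalized count + 1) against the mean level of a gene list in the same library (horizontal axis, same scale), with Stat4 and 15 T cell markers on the left and Stat2 and 18 interferon-stimulated genes on the right. Circles are 4 controls and triangles are 3 ICI-myocarditis libraries, and control 2 lies between the other controls and the triangles in both panels.

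Stat2, the interferon partner of IRF9, rose to nearly the same level in every affected heart. Its normalized counts were 959, 3058, 1196 and 798 in controls 1 to 4 against 3971, 4301 and 4131 in affected hearts 1 to 3. Control 2 was closer to the affected hearts than to the other controls, which averaged 984 ± 200 (SD, n = 3). The coefficient of variation was 69.8% in controls and 3.99% in ICI-myocarditis. The log2 fold change was 1.67 (SE 0.407, 95% interval 0.76 to 2.59, limma adjusted p = 0.0241), and 2.09 without control 2 (limma adjusted p = 0.000153). The call was lost with edgeR's quasi-likelihood test (log2 fold change 1.43, adjusted p = 0.0656), which called 13.6% of all genes, and when control 1, control 3 or any 1 of the 3 ICI-myocarditis libraries was left out (limma adjusted p from 0.0581 to 0.0787).

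Stat2 was compared with 18 genes of the interferon response, namely its partner Irf9 and interferon-stimulated targets. Of these 12 were called higher and 0 lower, with a median log2 fold change of 1.89, and 15 were called without control 2. Rtp4, a chaperone of receptor transport, rose by 1.63 (limma adjusted p = 0.00425), and Ifit3, an RNA-response protein, rose by 2.65 (limma adjusted p = 0.00428). Irf9 itself had 1064 ± 323 normalized counts in controls against 1755 ± 161 in affected hearts (a log2 difference of 0.76, limma adjusted p = 0.0621). The log2 level of Stat2 minus the mean of these 18 genes in the same library was 1.52 ± 0.15 over the 4 controls and 1.5 ± 0.16 over the 3 affected hearts (SD), a difference of -0.02 (exact two-sided permutation p = 0.943). Without control 2 the controls averaged 1.45 ± 0.05 and still overlapped the affected hearts. Against 16 macrophage and monocyte markers the level of Stat2 was 1.02 ± 0.50 in the 4 controls, 0.78 ± 0.23 without control 2 and 0.57 ± 0.43 in the affected hearts, with overlap (exact permutation p = 0.314, adjusted 0.393). In control 2 the mean log2 level of the 18 genes was 9.85, the highest of the controls, which began at 8.14, and below the 10.35 to 10.62 of ICI-myocarditis. The receptor genes upstream of STAT2 gave 0 calls among 4 with limma, with Ifnar1 at 1605 ± 271 and 2398 ± 373 normalized counts (a log2 difference of 0.58, limma adjusted p = 0.0841) and Ifnar2, the other chain, at 1222 ± 132 and 1752 ± 216 (0.52, limma adjusted p = 0.0824). DESeq2 called 1 of the 4, and limma without control 2 called 1.

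Stat3, the member activated through the gp130 receptor chain, was the most abundant of the 6 and did not pass the test. Its normalized counts were 6417, 5655, 5096 and 6007 in controls 1 to 4 against 7761, 8639 and 11002 in affected hearts 1 to 3. The groups did not overlap, and control 2 lay within the range of the other controls. The log2 fold change was 0.65 (SE 0.221, 95% interval 0.15 to 1.14, limma adjusted p = 0.0810), and 0.64 without control 2. DESeq2 called it (log2 fold change 0.66, adjusted p = 0.01003), a test that called 22.5% of all genes, as did limma-voom with quality weights (adjusted p = 0.0198) and limma with scaling by library size alone (0.81, adjusted p = 0.0396). In the authors' deposited table the adjusted p was 0.0138 for Stat3, 0.00871 for Stat2 and 0.000463 for Stat4. Those 3 of the 6 were below 0.05 in the authors' deposited table, where 20.2% of genes with an adjusted p were.

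Of 18 listed targets 11 were called higher and 0 lower, with a median log2 fold change of 1.84. Among the called targets, Saa3 (control mean 8.19, highest control 27.1) needed the affected hearts to pass the filter on low values. Timp1, an inhibitor of matrix metalloproteinases, rose by 4.87 (limma adjusted p = 0.00251) from 115 ± 88.1 to 2843 ± 586 normalized counts, and Fgl2, a fibrinogen-like protein of immune cells, rose by 2.63 (limma adjusted p = 0.00251). Many of these targets also answer to other factors, and several are made by immune cells or fibroblasts, whose markers were read too: 4 of 12 fibroblast markers were called higher, namely the collagen genes Col1a1, Col1a2 and Col3a1 and Fbln2, while Pdgfra (0.27), Dcn (0.11) and 6 others did not pass. Of 16 macrophage and monocyte markers 13 were called higher and 1 lower, with summed levels of 17190 to 24426 normalized counts in controls and 77325 to 121967 in ICI-myocarditis. The part of these cells in the result was not tested. Among 13 receptor genes upstream of STAT3, 6 were called higher and 0 lower, 1 of them (Il22ra1) below 10 normalized counts in every control and so tested through the affected hearts alone. Il10ra, a chain of the interleukin-10 receptor, rose by 2.85 (limma adjusted p = 0.00461) and Il21r, the interleukin-21 receptor, by 3.91 (limma adjusted p = 0.00506). Il6st, which encodes gp130, had 8462 ± 1175 normalized counts in controls against 8405.2 ± 730.2 in affected hearts (limma adjusted p = 0.996). Without ICI-myocarditis 3 the called genes fell to 7 of the targets and 3 of the receptors.

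Stat6, the interleukin-4 and interleukin-13 responsive member, lay higher in ICI-myocarditis without passing the test. Its normalized counts were 2497, 2637, 2222 and 2369.7 in controls 1 to 4 against 2679, 2936 and 3489 in affected hearts 1 to 3. The lowest affected heart exceeded the highest control, control 2, by a small margin. The log2 fold change was 0.31 (SE 0.181, 95% interval -0.09 to 0.72, limma adjusted p = 0.283), and no alternative called it.

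The targets of STAT6 were split in direction. Of 16 tested, 8 were called higher and 2 lower. Of the 8, Ccl17 and Cdh1 were below 10 normalized counts in every control and passed the filter through the affected hearts alone. Ccl22 and Alox15, with control means of 5.24 and 5.83 and a highest control of 13.6 each, also needed the affected hearts to pass it. The same held for Pdcd1lg2, with a control mean of 7.70 and a highest control of 14.8. Arg1, the arginase of alternatively activated macrophages, averaged 21.9 ± 7.67 normalized counts in controls and 328 ± 131 in affected hearts (a rise of 3.82 on the log2 scale, limma adjusted p = 0.00251), and Pdcd1lg2, a ligand of PD-1, rose by 5.05 (limma adjusted p = 0.00317). Ccl24, an eosinophil chemokine, fell by 3.50 on the log2 scale (limma adjusted p = 0.00816), from 56.4 ± 10.9 to 6.26 ± 7.76 normalized counts, and Mgl2, a lectin of alternatively activated macrophages, fell by 2.31 (limma adjusted p = 0.0187). Retnla, a classic target, had 54.5 ± 21.8 and 110 ± 155 normalized counts (limma adjusted p = 0.998). The called targets numbered 4 without ICI-myocarditis 3, 5 without ICI-myocarditis 1 and 6 without ICI-myocarditis 2. Of the 3 receptor genes upstream of STAT6 that were tested, Il4ra (1.88, limma adjusted p = 0.00814) and Il2rg (2.01, limma adjusted p = 0.0143) were called higher, and Il13ra1 was not (0.57, limma adjusted p = 0.355). Without ICI-myocarditis 3, 1 of the 3 was called.

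Stat5a and Stat5b, paralogs that serve interleukin-2, growth hormone and prolactin signals, were the 2 members with fold changes below 0, and neither passed. Normalized counts of Stat5a were 1313, 1292, 1361 and 1659 in controls 1 to 4 against 1020.1, 1184 and 829 in affected hearts 1 to 3. All 3 affected hearts were below all 4 controls, with control 2 the lowest of the controls. The log2 fold change of Stat5a was -0.48 (SE 0.193, 95% interval -0.92 to -0.05, limma adjusted p = 0.128). Normalized counts of Stat5b were 3719, 2990.2, 2926 and 3875 for the controls against 3006, 2947 and 2612 for the affected hearts. Its groups overlapped, with controls 2 and 3 among the affected hearts and controls 1 and 4 above them. The log2 fold change of Stat5b was -0.23 (SE 0.193, 95% interval -0.67 to 0.20, limma adjusted p = 0.463). No alternative called either gene. Markers of vessel cells were lower in the same hearts: 5 of 9 pericyte and smooth muscle markers were called lower, with summed levels of 54445 to 74989 normalized counts in controls and 25129 to 35909.8 in ICI-myocarditis, and 4 of 12 endothelial markers, with 46793 to 113992 and 39134 to 52481. Their part in the values of Stat5a and Stat5b was not tested.

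Reads of Stat5a and Stat5b can be hard to tell apart. Aligned over 2291 coding bases of the GENCODE M21 transcripts, they were 90.9% identical, whereas the other 14 pairs of the 6 genes were 58.3% to 65.3% identical. Their longest identical stretch ran over 324 bases, from base 571 to base 894 of both coding sequences, and no other pair shared more than 23 bases in a row. Of the 150-base windows of the Stat5a transcript, a length equal to 1 sequenced read, 5.06% also occurred unchanged in Stat5b. The first 150 bases of the shared stretch show what a read without any distinguishing base looks like.
Stat5a and Stat5b, coding strand, shared: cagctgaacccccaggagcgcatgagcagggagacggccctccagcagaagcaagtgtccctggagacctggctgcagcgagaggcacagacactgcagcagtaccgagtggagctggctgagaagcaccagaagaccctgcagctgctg

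How the authors' counting assigned such reads is not given in the sources used here, so the split between Stat5a and Stat5b is uncertain to that extent. The ratio of Stat5a to Stat5b, on the log2 scale, was -1.26 ± 0.17 over the 4 controls and -1.51 ± 0.18 over the 3 affected hearts (SD), overlapping between groups (difference -0.25, exact two-sided permutation p = 0.143, adjusted over 15 pairs 0.153). The paralogs lie side by side on chromosome 11 of GRCm38, Stat5b at chr11:100780731-100850724 on the minus strand and Stat5a at chr11:100859351-100885169 on the plus strand, 8.6 kb apart and pointing away from each other. Stat3 follows at chr11:100885098-100939540 on the minus strand, and its annotated end overlaps that of Stat5a by 72 bases. Stat6 at chr10:127642986-127660957 and Stat2 at chr10:128270559-128292849 lie 609.6 kb apart on the plus strand, and Stat4 is at chr1:51987148-52107189. Of the 3 neighbours on chromosome 11, Stat3 was above its controls in every affected heart and Stat5a below them.

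Of 13 tested receptor genes upstream of STAT5, 8 were called higher and 1 lower, and 5 in all without ICI-myocarditis 3. Csf2rb, the common beta chain of GM-CSF type receptors, rose by 3.18 (limma adjusted p = 0.00394), though its reads may be shared with the near-identical Csf2rb2 (3.32, limma adjusted p = 0.00474), and Il2rb, a chain of the interleukin-2 receptor on T and NK cells, rose by 5.32 (limma adjusted p = 0.00414). Prlr, the prolactin receptor, averaged 297 ± 42.6 normalized counts in controls against 73.7 ± 52.6 in affected hearts (a log2 difference of -2.37, limma adjusted p = 0.0218). Ghr, the growth hormone receptor, had 4967 ± 1580 and 2715 ± 748 normalized counts (-0.85, limma adjusted p = 0.0991). Of 15 STAT5 targets 3 were called, all higher: Osm, an interleukin-6 type cytokine, by 2.77 (limma adjusted p = 0.0163) though tested through the affected hearts alone, Pim1, a survival kinase, by 1.03 (limma adjusted p = 0.0233) and its relative Pim2 by 1.01 (limma adjusted p = 0.0319). The targets called numbered 0 without control 3, ICI-myocarditis 2 or ICI-myocarditis 3, 1 with the replicate block, 5 without control 2 and 7 with DESeq2. Cish, the classic STAT5 target, had 2113 ± 978 and 3319 ± 952 normalized counts (limma adjusted p = 0.222).

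**Figure D3:**
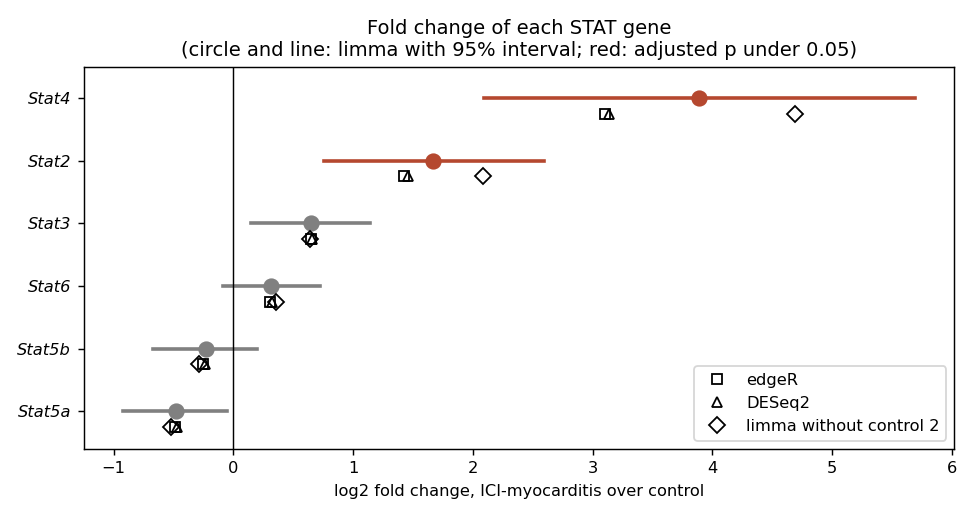
Log2 fold change of each STAT gene, ICI-myocarditis (n = 3) over control (n = 4), with limma's estimate as a circle and its 95% interval as a line, red where the adjusted p was under 0.05. Open symbols below each line give edgeR, DESeq2 and limma without control 2; for Stat4 and Stat2 limma without control 2 lies to the right (4.69 and 2.09) and the count models to the left (3.11 and 1.43 with edgeR).

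Because every gene of a library shares its scaling, members were also compared as ratios within a library. For 13 of the 15 pairs the ratios of the groups did not overlap, the exceptions being Stat2 over Stat3 and Stat5a over Stat5b. The 15 ratios share 6 genes, 5 of which already had groups that did not overlap. The count is therefore no separate result about the family, and no share over other gene pairs is given beside it. Without control 2 the count was 14, since Stat2 over Stat3, at -0.89 in control 2, was -2.58 ± 0.43 in the other controls (SD, n = 3) against -1.13 ± 0.25 in ICI-myocarditis. None of the 15 differences passed adjustment by the exact two-sided permutation test (lowest adjusted p 0.0659), although 4 had an unadjusted p of 0.0286, the smallest this exact test allows with 4 libraries against 3. These 4 pairs did not involve Stat2 or Stat4, in whose levels control 2 was the most distant control. By Dixon's test over the controls, 0 of 21 levels and ratios held a library past the critical share for 4 samples. That share is the gap to the nearest control over the range of controls, on the log2 scale. It was largest for the level of Stat5a (0.79, control 4), against 0.699 for Stat2 and 0.656 for Stat4 (both control 2). Stat5a is part of Stat3 over Stat5a and Stat5a over Stat6. Stat3 over Stat5a went from 2.04 ± 0.20 in controls to 3.17 ± 0.48 in ICI-myocarditis on the log2 scale, a difference of 1.13. Stat3 over Stat5b differed by 0.88, Stat3 over Stat6 by 0.33 and Stat5a over Stat6 by -0.80. Stat4 over Stat5a showed the widest difference, 4.37, from -6.28 ± 1.82 to -1.90 ± 0.60 (exact permutation p = 0.0571, adjusted 0.0659).

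**Figure D4:**
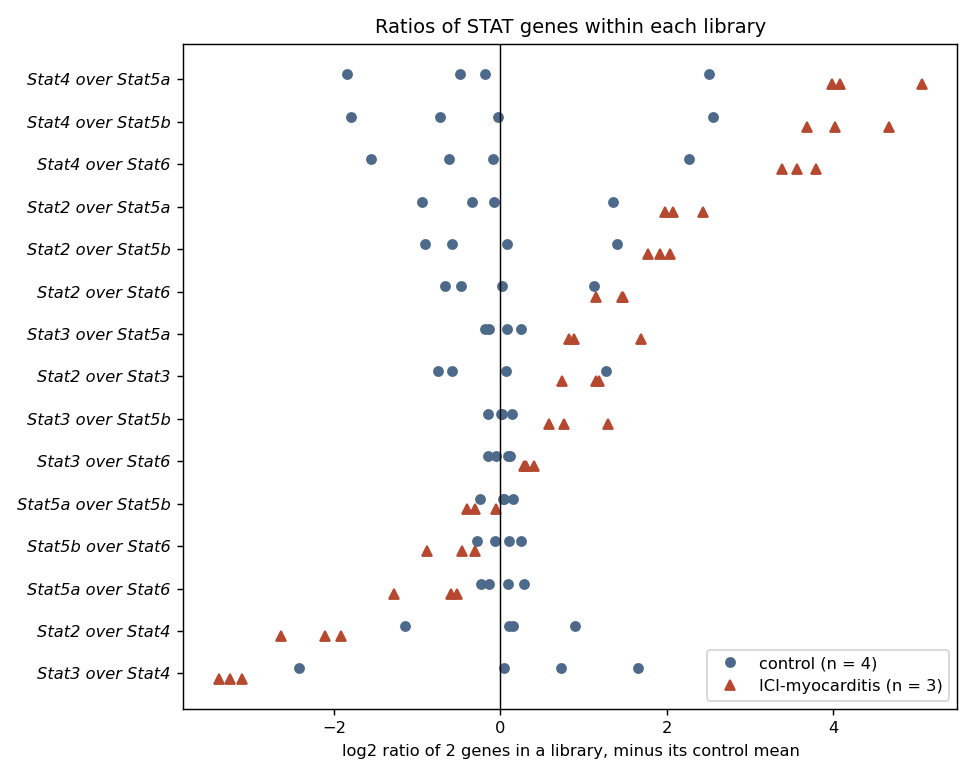
Log2 ratio of 2 STAT genes within a library, minus the mean of that ratio over controls (horizontal axis), for all 15 pairs (rows); circles are 4 controls and triangles 3 ICI-myocarditis libraries. Ratios with Stat4 or Stat2 spread widely among controls, with control 2 toward the triangles, and the ratio of Stat5a over Stat5b overlaps between groups. Control 2 is not the whole of that spread: Stat4 over Stat5a had an SD of 1.82 over the 4 controls and 0.88 without control 2.

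Levels were ordered after division by transcript length. Per kilobase of the longest protein-coding transcript, controls ran Stat3 (959 ± 92.6 normalized counts per kb, SD, n = 4), Stat5b (648 ± 93.9), Stat6 (644 ± 47.0), Stat5a (362 ± 44.0), Stat2 (342 ± 239) and Stat4 (10.4 ± 14.1). Stat5b and Stat6 overlapped among controls, as did Stat5a and Stat2, and the other neighbours did not. In ICI-myocarditis the order was Stat3 (1512 ± 277, SD, n = 3), Stat2 (940.2 ± 37.6), Stat6 (804 ± 110), Stat5b (548 ± 40.8), Stat5a (260.1 ± 45.7) and Stat4 (92.0 ± 25.8), with overlap only between Stat2 and Stat6. Stat2 had rank 5 in controls 1, 3 and 4, rank 3 in control 2 and rank 2 in each affected heart. As a share of the summed level per kilobase of the 6 genes, Stat2 went from 11.3% ± 6.92 (7.92% ± 2.21 without control 2, itself at 21.3%) to 22.7% ± 1.67, Stat5b from 21.9% ± 3.28 to 13.3% ± 2.06 and Stat5a from 12.3% ± 1.91 to 6.32% ± 1.41. Per kilobase of coding sequence, Stat3 was first and Stat4 last in all 7 libraries, as they were with the longest transcript.

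The genes of most similar pattern were listed among 11391 genes with a mean of at least 100 normalized counts and no predicted or clone name, by the root mean square difference of log2 levels over the 7 libraries after each gene was centred on its own mean. For Stat2 these were Igsf9 (0.128), Trim21 (0.137) and Uba7 (0.138), the latter 2 an antibody receptor of the cytosol and the enzyme that activates ISG15. For Stat4 they were Ciita (0.133), the master factor of MHC class II genes, Kcna3 (0.211), a potassium channel of T cells, and Gpr174 (0.232). For Stat3 they were Dock5 (0.053), Itm2c (0.057) and Fam105b (0.077), and for Stat6 Smn1 (0.033), Prkx (0.056) and Tle4 (0.058). Stat5a was nearest to Zfp113 (0.055), Parp1 (0.060) and Ggcx (0.067), and Stat5b to Aamp (0.043) and Wipi2 (0.045). Among the 6 themselves, Stat3 and Stat6 (0.187) and the paralogs Stat5a and Stat5b (0.191) were the closest pairs, and Stat4 and Stat5a (2.49) the most distant. With 7 libraries many genes lie this close, and small values are easier to reach for genes that change little.

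The kinases and inhibitors around the STAT proteins were read from the same fit. Of the 4 JAK genes 1 was called. Jak2, the kinase of many cytokine and hormone receptors, averaged 1571 ± 267 normalized counts in controls against 2797 ± 658 in affected hearts (a rise of 0.82 on the log2 scale, limma adjusted p = 0.0360). The call of Jak2 was the only one among the JAK genes, and 0 of the 4 were called under scaling by library size, with the replicate block, without trend and robust variance, or without control 1, 3 or 4 or ICI-myocarditis 2 or 3. Jak1 had 7087 ± 548 and 6971 ± 624 normalized counts (limma adjusted p = 0.954), Jak3 of lymphocytes 1049 ± 600 and 1754 ± 235 (0.90, limma adjusted p = 0.152), and Tyk2, the kinase of interferon and interleukin-12 receptors, 930.5 ± 340 and 1567 ± 268 (0.80, limma adjusted p = 0.0816). Without control 2, 3 of the 4 were called higher.

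Of 19 inhibitors of the pathway, 6 were called higher and 0 lower, with a median log2 fold change of 0.35. Socs1 and Socs3, feedback inhibitors that block JAKs, rose by 4.55 and 3.16 (limma adjusted p = 0.00366 and 0.00414). Usp18, which dampens interferon receptor signalling, rose by 1.97 (limma adjusted p = 0.0190). The other called inhibitors were the phosphatase genes Ptpn6, Ptpn1 and Ptprc, of which Ptpn6 and Ptprc are genes of blood cells. Socs4, Socs5, Socs6, Socs7 and all 4 PIAS genes, which restrain STAT proteins in the nucleus, did not pass the test, with log2 fold changes between -0.17 and 0.35.

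Of 14 STAT4 target and type 1 helper T cell genes, 10 were called higher and 0 lower. Their median log2 fold change of 4.40 was the highest of the 13 lists around the STAT factors, and below the 4.49 of the T cell markers. The part of T and NK cells in these values was not tested. Ccl4, a chemokine of activated T cells and macrophages, rose by 6.74 (limma adjusted p = 0.00414) and Prf1, the pore-forming protein of killer cells, by 5.39 (limma adjusted p = 0.00424). Ccl4 averaged 12.5 ± 20.5 normalized counts in controls, with a highest control of 43.2, and needed the affected hearts to pass the filter on low values. Tbx21, Ifng and Ccl3 needed them too, with control means of 17.0, 15.5 and 18.7 and highest controls of 48.1, 55.5 and 54.3. The count and the median of this list are therefore not free of the filter. Of 4 tested receptor genes, Il12rb1, the shared chain of the interleukin-12 and interleukin-23 receptors, was called higher (5.60, limma adjusted p = 0.00876), from 34.1 ± 56.3 to 725 ± 463 normalized counts. With controls from 2.50 to a highest of 118, Il12rb1 also needed the affected hearts to pass the filter. Its partner chain Il12rb2 had 178 ± 29.3 and 150.4 ± 3.65 normalized counts (-0.22, limma adjusted p = 0.567). DESeq2 called 2 of the 4, as did limma without control 2.

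**Figure D5:**
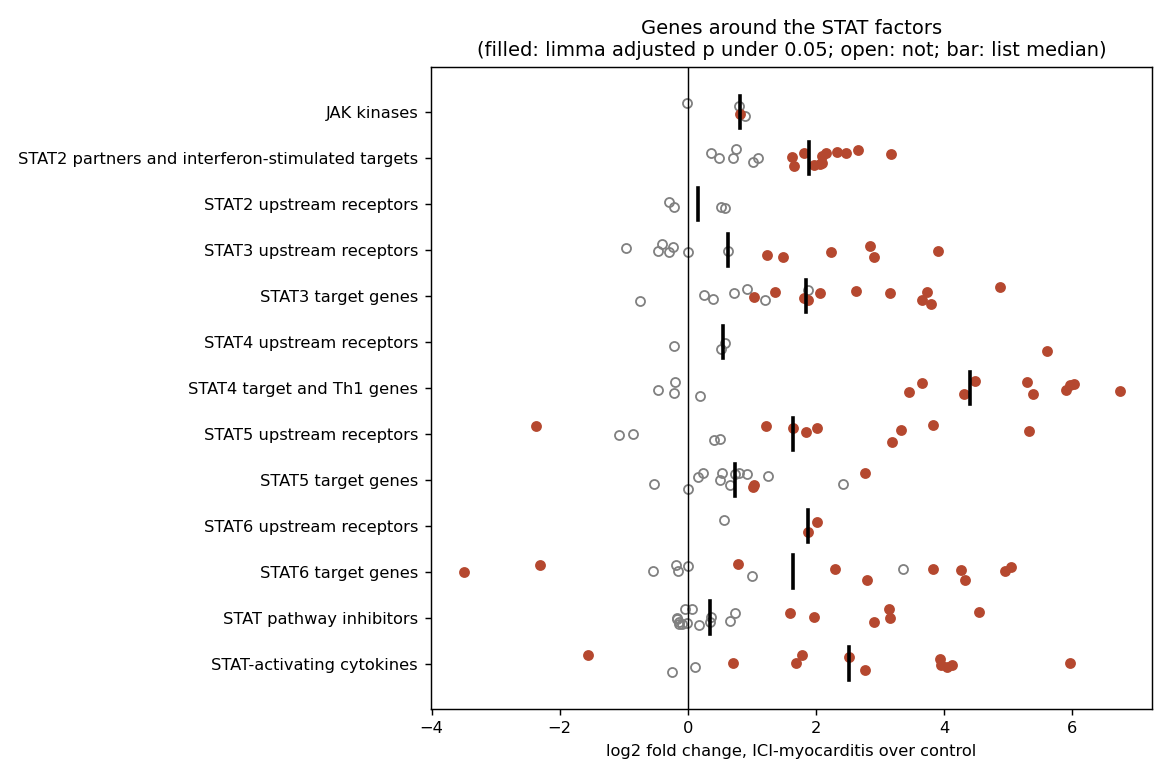
Log2 fold changes (horizontal axis, ICI-myocarditis over control) of the tested genes in 13 lists around the STAT factors (rows); filled circles had a limma adjusted p under 0.05, open circles did not, and black bars are list medians. The STAT4 target list has the highest median (4.40) and the receptor list of STAT2 holds no filled circle.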

How the data were processed

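Total RNA of 7 hearts was sequenced as stranded, paired-end libraries, per the labels' protocols. STAR 2.7.3 and the builds GRCm38 and mm10 are named in the submitters' processing notes, while how reads were counted, with which annotation and whether by strand, is not given in the sources used here. The 7 library columns hold a signal that the authors made by dividing read counts by 1 size factor per library, as the values show. Per the file headers, the deposited table further holds the authors' comparison: log2 fold changes and their errors, a score (the statistic), and p-values raw and adjusted. Each column was divided by its smallest value above 0, which gave whole reads for 100% of values within 0.01. In control 1 the step is so close to 1 that this is a weaker sign. Rows with names turned into dates, 27 in number, were left out and held at most 0.158% of reads. No value column was left unused (0).

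A gene was kept where 3 or more libraries reached 10 normalized counts. Tests used limma 3.58.1 under R 4.3.3, on the log2 of the normalized count plus a pseudocount of 1, with trend and robust variance, and Benjamini-Hochberg adjustment over all genes tested at a threshold of 0.05. Fold changes are differences of mean log2 values on that scale, where the pseudocount draws low genes toward 0 and a high control weighs less than in a ratio of means: for Stat4 the fold was 14.8 from the log2 values and 8.82 from the group means. edgeR 4.0.16, DESeq2 1.42.0 and limma-voom on recovered reads, other pseudocounts, filters and scalings, a replicate block, and the removal of each library were alternatives. Ratios of members were compared by exact permutation of the libraries. The series counts its replicates as mice, and litters and preparation days are not given.

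Members and gene lists were chosen with earlier results of these data known, so counts over a list are descriptions. Named genes were all members, the JAK genes and the called genes with the 2 lowest p-values per direction in each pathway list. Others (Irf9, Ifnar1, Ifnar2, Il6st, Retnla, Il13ra1, Ghr, Cish, Csf2rb2, Usp18 and the SOCS, PIAS and phosphatase genes, Pim2 and Il12rb2) were named after their values were seen, as were the comparisons of Stat4 and Stat2 with list means. Ctla4, Pdcd1 and the named cell markers were also outside this rule. So were cytokine genes other than Il27, Ebi3, Ctf1 and Osm, and genes named only for the filter on low values. The 3 genes of most similar pattern per member were also named, apart from 1 gene left out of the candidates and 1 that met the rule for Stat5b, which are not reported here. Gene lengths and positions are from GENCODE M21 (GRCm38), and promoters are from RefSeq (GRCm38.p6).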

Additional observations from a re-analysis of the deposited data

How the results depend on the processing

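Of the 19 alternatives, Stat4 was called in 18 and Stat2 in 13, Stat3 in 3, and Stat5a, Stat5b and Stat6 in 0, and none of the 6 fold changes changed sign. The number of STAT genes called was 2. It was 1 with edgeR, 3 with DESeq2, library size scaling or limma-voom with quality weights (Stat3 added), and ranged from 0 to 2 when 1 library was left out (0 without ICI-myocarditis 3). Over all genes, 2392 were called, 3998 with limma-voom with quality weights, 3435 with DESeq2, and from 983 to 3333 with 1 library left out. The cause of these differences was not tested. With the replicate number as a block, 1777 genes and 2 STAT genes were called. Control 4 has no ICI-myocarditis library of its number, so under the block it adds nothing to the fold changes. Those of the 6 STAT genes equalled the ones without control 4 (3.362 for Stat4 in both), and these alternatives are not separate in that respect. Deviations of same-numbered libraries from their group means correlated between -0.271 and -0.0778, within the -0.477 to 0.451 of differently numbered libraries. So few pairs cannot tell whether the numbers mark a litter or a day. Scaling by library size alone moved the median fold change of all genes from -0.02 to 0.14 on the log2 scale, and Stat5b then stood at -0.07. The exact tests on pairs have no value with 1 library left out, since their smallest p-value then exceeds the threshold. The order of levels changed with gene length: with the union of all annotated exons, a length chosen after seeing the data, Stat6 was first in control 2 and Stat5b in control 4.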

Other observations

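Cytokine genes that activate STAT proteins differed widely in level. Csf1, the macrophage growth factor, had 2033 ± 139.7 normalized counts in controls against 3333 ± 586 in affected hearts, and Il15 had 650.1 ± 223 against 540.2 ± 183, while 11 of the 24 listed genes were below the filter on low values. Of the 13 that were tested, 10 were called higher and 1 lower. Osm, Il27 and Il21 were below 10 normalized counts in every control and passed the filter through the affected hearts alone, so their direction was fixed by the filter. Of the other 10 genes 7 were called higher and 1 lower, but these are not free of the filter either. Ifng, Il12b and Il10 averaged 15.5, 3.59 and 7.24 in controls, with highest controls of 55.5, 11.1 and 14.1, and also needed the affected hearts to pass. Il27, a subunit of interleukin-27, rose from 3.26 ± 2.17 normalized counts (SD, n = 4) to 67.8 ± 17.4 (SD, n = 3), by 4.13 on the log2 scale (limma adjusted p = 0.00317), and Ebi3, which encodes the other subunit of interleukin-27, rose from 22.0 ± 6.10 to 134 ± 55.3, by 2.52 (limma adjusted p = 0.00458). Ctf1, which encodes the gp130 cytokine cardiotrophin-1, was the 1 gene called lower, from 146 ± 39.6 to 53.2 ± 25.7 normalized counts (log2 fold change -1.55, limma adjusted p = 0.0371). Of 19 alternatives, 11 called Ctf1 and 8 did not, with adjusted p from 0.0502 to 0.113: edgeR, library size scaling, the replicate block, and limma without ICI-myocarditis 2 or 3 or control 1, 3 or 4. Without ICI-myocarditis 3 the called cytokine genes numbered 4, without ICI-myocarditis 2 they numbered 5, and without ICI-myocarditis 1 they numbered 6. With a filter at 50 normalized counts 7 were called. Ifnb1, Il6, Il2, Il4 and Il13 were below the filter on low values, and Il9 was listed at 0 in all 7 libraries.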
